A study of Homo sapiens with 62 samples.

Results

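Among ion channel genes, 9 were followed through the SLAM-seq libraries by their gene names, and all 9 were found among the 29794 genes of the tables. They are the LRRC8A, LRRC8B, LRRC8C, LRRC8D and LRRC8E subunits of the volume-regulated anion channel and the potassium channels KCNK1, KCNK5, KCNK6 and KCNN4. The genes were chosen by their T>C read changes after KLF5 degradation, which were already known: KCNK1 was low after the degrader in AsPC-1 cells and LRRC8A in T3M-4 cells. Values after KLF5 degradation are therefore given as a description with no p-value, and nothing is read from how many of the genes passed the edgeR test there. The inhibitor and cell line comparisons carry p-values.

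When a cell swells, the volume-regulated anion channel opens and lets chloride and small organic osmolytes leave. It is built from LRRC8 proteins: LRRC8A is the obligatory subunit, and the others set which solutes pass and at what rate. KCNK channels are two-pore-domain potassium channels that carry background potassium current; KCNK1 (TWIK-1) and KCNK6 (TWIK-2) are weak inward rectifiers, and KCNK5 (TASK-2) is sensitive to pH and has been linked to volume regulation. KCNN4 (KCa3.1) is a calcium-activated potassium channel of epithelial and blood cells, whose potassium efflux can accompany chloride efflux. KLF5 is a zinc finger transcription factor of epithelia that binds GC-rich and CACCC-type motifs.

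The study labelled newly made RNA with 4-thiouridine in 2 pancreatic ductal adenocarcinoma lines, AsPC-1 (42 libraries) and T3M-4 (20 libraries), so that reads of new RNA carry T>C conversions. In every library, controls included, the endogenous KLF5 gene was targeted with a guide RNA and KLF5 was supplied as a lentiviral FKBP12-F36V-FLAG fusion. No library therefore comes from untargeted cells. The paper checked the knockout by Western blot, and whether some cells kept unedited KLF5 is not given in the sources used here. Cells were treated for 4 h with the degrader dTAGv-1 (dTAG; 10 AsPC-1 and 4 T3M-4 libraries) or its inactive analogue dTAGv-1-NEG (NEG; 10 and 4). Others received for 4 h the RUVBL1/2 inhibitor CB-6644 (5 and 4), the CDK9 inhibitor NVP-2 (4 and 4) or the solvent DMSO (5 and 4), and in AsPC-1 CB-6644 or DMSO for 12 h (4 each). The study calls the samples of a condition biological replicates and its experiments independent, but the sources used here do not say whether libraries of an experiment are separate cultures, so p-values measure the spread between these libraries, which may be technical.

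An AsPC-1 library held between 82676553 and 200298262 reads, of which between 2240998 and 18311982 were T>C reads. A T3M-4 library held between 111132257 and 244524608 reads and between 3714015 and 27982537 T>C reads. The subtype markers fitted the lines only in part: HNF4A stood at 12.4 to 22.2 CPM of all reads (reads scaled to a common library total) in the DMSO libraries of AsPC-1 and at most 0.474 in T3M-4, and TP63 at 18.3 to 28.7 in T3M-4 and at most 0.121 in AsPC-1, but the classical marker CLDN18 was at or near 0 in both. The AsPC-1 libraries fell into 17 with high and 25 with low DCLK1, a split that crossed all treatments (4 high of 10 in both dTAG and NEG, 2 of 5 with CB-6644 and 1 of 5 with DMSO at 4 h). In all reads of the control libraries, LRRC8A was at 41.6 ± 3.47 CPM in the 7 DCLK1-high and 33.0 ± 2.36 in the 12 DCLK1-low libraries (SD). Single libraries ran from 37.8 to 48.4 and from 28.2 to 35.5. How many of all genes separate by this split was not counted, so nothing is read from this separation. KCNK6 was at 18.7 ± 4.57 against 13.6 ± 2.02 and KCNN4 at 86.8 ± 28.7 against 64.1 ± 19.1, with overlap. KCNK1 did not follow the split, at 99.8 ± 21.8 against 99.6 ± 29.0. With this split as a block, 4 members were called after dTAG and 5 after NVP-2, the same numbers as without it. Without the block 2.4% and 30.5% of all genes were called, and nothing is read from these counts.

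Of these genes, KCNK1 had the largest log2 decrease after KLF5 degradation in AsPC-1 and LRRC8A in T3M-4. KCNK1 (chromosome 1, 233614106 to 233672514, plus strand, hg38) and LRRC8A (chromosome 9, 128882133 to 128918039, plus strand) were counted in their 3′ untranslated regions. In the canonical transcripts these run from 233671528 to 233672514 and from 128916369 to 128918039. The authors added up the reads of all 3′ untranslated exons of a gene, so the counted regions can be wider. The 250 bases before the annotated start are shown for both, and for KCNN4 (chromosome 19, 43766533 to 43780976, minus strand), which had the next largest decrease in AsPC-1. They come from RefSeq, build GRCh38.p14, and lie at chr1:233613856-233614105 (plus strand), chr9:128881883-128882132 (plus strand) and chr19:43780974-43781223 (minus strand). Capitals mark each match to GGGCGG, the GC box, or to CCACCC, a form of the CACCC box, on either strand.
KCNK1: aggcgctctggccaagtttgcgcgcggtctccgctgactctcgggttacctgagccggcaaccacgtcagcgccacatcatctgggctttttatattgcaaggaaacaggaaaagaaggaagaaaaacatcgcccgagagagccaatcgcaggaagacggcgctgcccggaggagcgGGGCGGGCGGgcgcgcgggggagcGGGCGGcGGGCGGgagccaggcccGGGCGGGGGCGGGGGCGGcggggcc
LRRC8A: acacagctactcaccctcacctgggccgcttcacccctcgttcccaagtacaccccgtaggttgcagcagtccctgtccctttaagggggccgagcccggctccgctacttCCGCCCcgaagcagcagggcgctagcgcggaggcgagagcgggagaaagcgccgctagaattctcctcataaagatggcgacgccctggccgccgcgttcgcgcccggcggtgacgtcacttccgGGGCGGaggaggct
KCNN4: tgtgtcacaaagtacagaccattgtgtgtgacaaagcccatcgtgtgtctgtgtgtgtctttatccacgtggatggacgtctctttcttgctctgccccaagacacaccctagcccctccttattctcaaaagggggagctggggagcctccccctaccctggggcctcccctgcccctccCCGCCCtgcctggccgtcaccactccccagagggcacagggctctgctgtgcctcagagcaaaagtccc

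The KCNK1 window held 7 GC boxes, some of them overlapping or end to end, the LRRC8A window 2 and the KCNN4 window 1. None of these 3 held CCACCC. The shorter run CACCC, which was not marked or counted, is in the LRRC8A and KCNN4 windows. All 9 genes matched the RefSeq table, with 11 windows since LRRC8A and LRRC8D have 2 starts. A GC box was in 10 of the 11 windows (90.9%), against 42.6% of all 35116 promoter windows of the table. CCACCC was in 3 of 11 (27.3%), in LRRC8B, KCNK6 and the second start of LRRC8D, against 31.3% of all windows. The longer KLF-type motifs GGGTGTGG and GGGCGTGG were in 0 of the 11, against 2.97% and 4.71% of all windows. The member windows were 59.6% to 80.8% G or C, and a match is a run of letters, not a bound site.

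KCNK1, a two-pore potassium channel, was lower in the newly made RNA of AsPC-1 cells after dTAG. In the 10 NEG libraries it ranged from 206.8 to 321.5 T>C CPM, with a median of 246.4, and in the 10 dTAG libraries from 52.7 to 140.4, with a median of 97.5. T>C CPM are T>C reads scaled in the same way, within a comparison and by edgeR's TMM factors. Every dTAG library lay below every NEG library. The mean fell from 252 ± 35.1 to 97.2 ± 24.0 (SD, n = 10 each), a log2 change of −1.38 (SE 0.14). In experiments 1, 2 and 3 the log2 ratio of the means was −1.47, −0.99 and −1.53. In all reads, which also count RNA made before labelling, the log2 change was −0.92.

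The other 3 potassium channels were lower after dTAG in AsPC-1 too. KCNN4 fell from 70.5 ± 35.7 to 27.6 ± 8.80 CPM (−1.35, SE 0.25), with NEG libraries from 37.6 to 151.9 and dTAG libraries from 13.3 to 39.9, so that the groups met at their edges. Its log2 ratio was −1.47, −0.53 and −1.67 in the 3 experiments and −0.60 in all reads. KCNK5 (chromosome 6, 39188971 to 39229475, minus strand) fell from 19.8 ± 2.59 to 12.4 ± 2.00 CPM (−0.68, SE 0.12), and its dTAG libraries, from 9.18 to 15.3, were all below its NEG libraries, from 16.4 to 23.5. KCNK6 (chromosome 19, 38319845 to 38332076, plus strand) fell from 21.7 ± 5.81 to 13.9 ± 3.01 CPM (−0.65, SE 0.15), with overlap. These 4 genes were the members called by the edgeR test in AsPC-1, of 8 tested, where 2.4% of all 11696 genes were called (1.94% lower and 0.462% higher). Without experiment 1 the count was 1, KCNK1. KCNK1 and KCNK5 were the 2 members with all dTAG libraries below all NEG libraries, which held for 0.41% of all genes, and 0 members had all dTAG libraries above, which held for 0.0171%. The comparison chose the genes, so nothing is read from these counts.

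The LRRC8 subunits moved less in AsPC-1. LRRC8A was at 59.3 ± 14.9 CPM after dTAG and 75 ± 15.2 in NEG (−0.34, SE 0.14), and LRRC8E (chromosome 19, 7888505 to 7902021, plus strand) at 9.85 ± 3.69 and 12.5 ± 3.36 (−0.35, SE 0.21). LRRC8B (chromosome 1, 89524829 to 89597861, plus strand) was at 24.7 ± 6.35 and 21.3 ± 5.66 (0.22, SE 0.17), and LRRC8D (chromosome 1, 89821014 to 89936611, plus strand) at 13.2 ± 1.65 and 11.7 ± 3.24 (0.18, SE 0.15). The groups overlapped for all 4 subunits. LRRC8C (chromosome 1, 89633072 to 89769903, plus strand), which lies between LRRC8B and LRRC8D, did not pass the filter on low counts: 30 of the 42 AsPC-1 libraries had 0 of its T>C reads and none had more than 5. Scaled by all reads, the median gene shifted to −0.22 and LRRC8A, at −0.54, was also called, where 941 of all 11761 genes were called.

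In T3M-4 LRRC8A, the obligatory subunit of the anion channel, was lower after dTAG. Its NEG libraries stood at 507.4 and 421.2 CPM in experiment 1 and at 718.7 and 788.0 in experiment 2, and its dTAG libraries at 151.6 and 164.0 and at 192.8 and 177.0. Every dTAG library lay far below every NEG library. The mean fell from 609 ± 173 to 171 ± 17.7 (n = 4 each), a log2 change of −1.83 (SE 0.23), with −1.56 and −2.03 in the 2 experiments and −1.01 in all reads. LRRC8A was the only member called of 9 tested, where 0.834% of 13424 genes were called (0.745% lower and 0.0894% higher), and again nothing is read from the count.

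KCNK1 was also lower in each dTAG library of T3M-4. The NEG libraries had 125.9, 144.2, 133.1 and 121.1 CPM and the dTAG libraries 68.4, 95, 52.4 and 42.8, a mean of 131 ± 10.1 against 64.7 ± 22.8 (−1.02, SE 0.25). Both experiments had lower dTAG means, at −0.73 and −1.42. With the replicate number as a block 2 members were called in place of 1, and nothing is read from that count. KCNN4 was at 33.1, 21.1 and 20.99 CPM in 3 dTAG libraries and at 88.5 in the library 1.1, against NEG libraries from 57.3 to 96.3 (−0.90, SE 0.44). LRRC8D lay lower in all dTAG libraries (27.0 ± 3.92 against 34.0 ± 2.26 CPM, −0.33, SE 0.18), and LRRC8C higher in all of them (29.4 ± 3.16 against 22.4 ± 4.09, 0.39, SE 0.20). Such separation of all libraries, with dTAG below or above, held for 3.81% and 1.94% of all genes. LRRC8B (0.38, SE 0.20), LRRC8E (−0.03, SE 0.32), KCNK5 (−0.48, SE 0.45) and KCNK6 (−0.30, SE 0.29) overlapped between the groups.

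**Figure D1:**
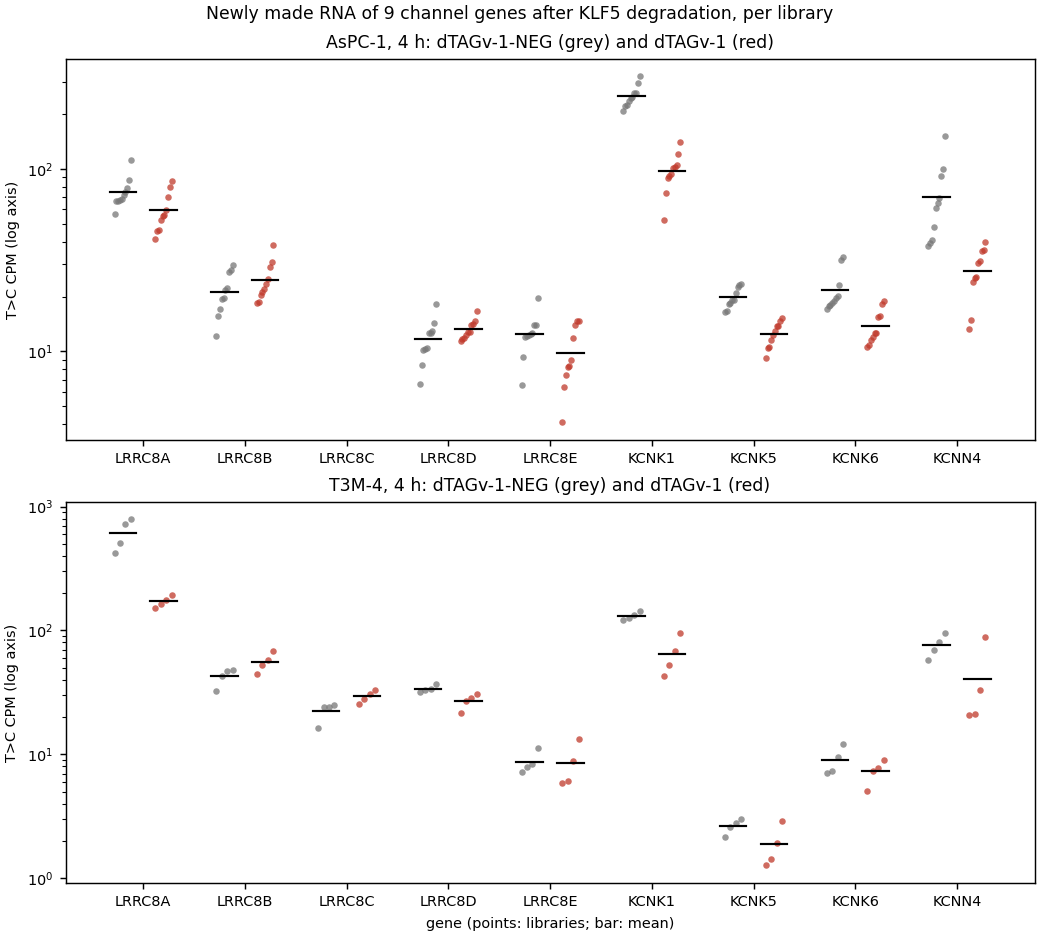
T>C CPM (log axis) of each channel gene in every NEG (grey) and dTAG (red) library, AsPC-1 above and T3M-4 below, with a bar at the mean. The groups do not overlap for KCNK1 in both lines, KCNK5 in AsPC-1, and LRRC8A, LRRC8C and LRRC8D in T3M-4; LRRC8C is not drawn in AsPC-1, where it did not pass the filter on low counts.

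The labelled share, the T>C reads of a gene as a percentage of all its reads, was lower after dTAG for KCNK1 in both lines and for LRRC8A in T3M-4. For KCNK1 in AsPC-1 it was 15.3% ± 2.04 (n = 9, since the all-reads column of 1 dTAG library was not used) after dTAG and 24.9% ± 2.90 (n = 10) in NEG, and single libraries lay between 12.0 and 18.5% and between 20.6 and 28.6%. The share of the whole libraries was 8.001% ± 0.34 after dTAG and 9.30% ± 0.69 in NEG. For KCNK6 it was 9.89% ± 1.02 against 13.8% ± 1.74, again with no overlap, and for KCNN4 4.33% ± 1.27 against 8.23% ± 1.38. For LRRC8B and LRRC8D, whose T>C levels had positive log2 changes, it was lower as well, at 18.3% ± 3.28 against 22.04% ± 3.36 and at 21.1% ± 4.40 against 22.9% ± 5.58, with overlap. For LRRC8A in T3M-4 it was 16.1% ± 3.50 against 25.4% ± 2.06, from 12.2 to 19.6% against 23.0 to 27.5%. For KCNK1 in T3M-4 it was 27.98% ± 5.32 against 38.2% ± 1.52, from 20.2 to 31.8% against 35.97 to 39.5%. The T3M-4 libraries as a whole had 12.98% ± 0.86 and 12.7% ± 0.54. How many of all genes separate in labelled share after dTAG was not counted, so nothing is read from the lack of overlap.

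In T3M-4 the T>C reads counted for KLF5 were higher after dTAG, at 996.3 to 1194 CPM against 516.3 to 633.6. Whether they come from the endogenous gene or from the supplied fusion is not given in the sources used here. The degrader acts on the protein, so these reads do not check the labels.

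Over all treatments, KCNK1 in AsPC-1 had 123 ± 5.59 CPM of all reads with CB-6644 at 4 h (n = 5), 121 ± 27.2 with DMSO at 4 h (n = 5), 95.5 ± 15.8 in NEG (n = 10), 83.7 ± 33.8 with DMSO at 12 h (n = 4), 70.7 ± 9.26 with CB-6644 at 12 h (n = 4), 51.7 ± 6.10 with NVP-2 (n = 4) and 51.5 ± 15.9 after dTAG (n = 9). Neighbours in this order differed by less than 1 SD of the wider group except CB-6644 at 12 h and NVP-2. In T3M-4 its levels ran from 30.7 ± 9.34 after dTAG to 42.4 ± 4.02 in NEG (n = 4 each). LRRC8A in T3M-4 stood at 293 ± 21.6 with DMSO, 290 ± 45.8 in NEG, 246 ± 47.9 with CB-6644, 189 ± 16.2 with NVP-2 and 147 ± 37.4 after dTAG (n = 4 each), and CB-6644 was nearer to the controls than to NVP-2. In AsPC-1 LRRC8A ran only from 23.2 ± 4.61 with NVP-2 to 36.9 ± 9.86 with DMSO at 12 h. A CPM level cannot tell fewer RNA molecules per cell from a shift in the rest of the RNA.

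CB-6644 asked whether inhibition of the RUVBL1/2 ATPases acts on the same transcripts. No member passed the edgeR test (adjusted p under 0.05) in AsPC-1 at 4 h, in T3M-4 at 4 h or in AsPC-1 at 12 h, where 0% of all genes were called and 482, 569 and 473 genes had an unadjusted p under 0.05. DESeq2 also called 0 members, with 0, 5 and 20 genes called in all. In AsPC-1 at 4 h KCNK1 was at 249.4, 277.4, 307.2, 397.3 and 409.7 CPM with DMSO and at 367.4, 249.0, 241.0, 254.4 and 264.0 with CB-6644 (−0.25, SE 0.18, edgeR adjusted p 0.979). The log2 ratio was 0.04 in experiment 1 and −0.64 in experiment 2. LRRC8A in T3M-4 was at 551 ± 176 against 636 ± 87.0 CPM (−0.21, SE 0.24, edgeR adjusted p 0.996). KCNN4 in T3M-4 had 151.8 and 232.6 CPM with CB-6644 in experiment 1 and 60.1 and 62.4 in experiment 2, against 103.6, 70.7, 68.0 and 71.8 with DMSO, so its mean difference (0.69, SE 0.41, edgeR adjusted p 0.994) was seen in experiment 1 (log2 ratio 1.14) and not in experiment 2 (−0.19). All member groups overlapped in the 3 comparisons. Groups with all CB-6644 libraries below or above all DMSO libraries were found for 0.343% and 0.386% of all genes in AsPC-1 at 4 h, 1.59% and 1.55% in T3M-4, and 1.41% and 1.84% in AsPC-1 at 12 h. For every member tested in both lines, the difference between the lines in the response to CB-6644 missed the threshold (interaction term, edgeR adjusted p 1.0 for each), where 0% of all genes passed.

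The labelled share of KCNK1 was the 1 member value that passed its test after CB-6644. It was 19.3% ± 2.27 with CB-6644 and 26.9% ± 3.34 with DMSO in AsPC-1 at 4 h (n = 5 each), from 17.7 to 23.3% against 24.1 to 31.9% (exact two-sided permutation p 0.00794, the smallest possible here, and 0.0318 adjusted over 48 share tests). The whole libraries moved the same way, from 10.1% ± 0.62 to 8.51% ± 0.25, and divided by the share of its library the KCNK1 share was 2.27 against 2.67 (exact permutation p 0.0635, adjusted 0.16). KCNN4 had 6.57% ± 1.24 against 8.74% ± 1.34 (exact permutation p 0.0397, adjusted 0.0794). At 12 h KCNK1 had 25.0% ± 2.93 against 27.4% ± 4.02 (n = 4 each, exact permutation p 0.371, adjusted 0.556), and in T3M-4 35.3% ± 3.28 against 37.0% ± 1.82 (n = 4 each, exact permutation p 0.457, adjusted 0.609). Whether the share changed in 1 line or at 1 time only was not tested.

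NVP-2 blocks CDK9, the kinase that releases paused RNA polymerase II, and the labelled share of whole libraries fell to 1.35 to 1.91% in AsPC-1 and 1.80 to 2.80% in T3M-4, against 10.1% ± 0.62 and 12.4% ± 1.56 with DMSO. Each channel gene tested had fewer T>C reads for its library's total of all reads. On this scale, set by all reads, the median gene fell by 3.26 on the log2 scale in AsPC-1 and by 3.09 in T3M-4. The 8 members tested in AsPC-1 changed by −2.56 (LRRC8D) to −5.81 (LRRC8E) and the 9 in T3M-4 by −2.29 (LRRC8D) to −6.17 (KCNK6), and all of them passed the edgeR test. On this scale 10829 of all 11498 genes were called in AsPC-1 and 10680 of 12242 in T3M-4, so nothing is read from the members passing. With TMM scaling, which sets each gene against the others, the members separated.

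In AsPC-1, 5 of the 8 members fell further than the other genes with TMM scaling, where 17.6% of all genes were called lower, 12.9% higher and 30.5% in either direction. KCNK1 had 208.0 to 342.7 CPM in the 5 DMSO libraries, with a median of 253.8, and 85.0, 67.6, 122.3 and 73.3 with NVP-2 (log2 change −1.65, SE 0.26, edgeR adjusted p 0.000821). LRRC8E went from 7.19 ± 3.83 to 1.15 ± 0.70 (−2.68, SE 0.63, edgeR adjusted p 0.00744), on 2, 2, 2 and 4 counted T>C reads. LRRC8E passed the filter on low counts through DMSO, where it is high, so its call, counted among the 5, carries little weight. KCNN4 (−1.21, SE 0.33), KCNK5 (−1.35, SE 0.40) and LRRC8A (−0.93, SE 0.28) had edgeR adjusted p of 0.0161, 0.0247 and 0.0266. All NVP-2 libraries lay below all DMSO libraries for these 5 and for KCNK6 (−0.82, SE 0.32, edgeR adjusted p 0.071), which held for 18.2% of all genes, and 0 members had all of them above, which held for 10.2%. LRRC8B (−0.58, SE 0.40) and LRRC8D (0.61, SE 0.41) did not pass (edgeR adjusted p 0.304 and 0.286). Without the DMSO library 1.2 the count was 3, with LRRC8A (edgeR adjusted p 0.073) and KCNK5 (0.064) lost. LRRC8A was also lost without DMSO 2.1 (0.0654) and KCNK5 without DMSO 2.2 (0.055), and KCNK6 passed without NVP-2 2.1 (0.0327). The NVP-2 libraries of AsPC-1 were in batch 2 and the DMSO libraries in batch 1, and batch and treatment cannot be told apart there.

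In T3M-4, where DMSO and NVP-2 were run in the same batches, 3 of 9 members fell further than the other genes, where 14.2% of all genes were called lower, 12.4% higher and 26.7% in either direction. LRRC8A stood at 447.6, 429.8, 557.0 and 590.1 CPM with DMSO and at 123.9, 114.0, 144.7 and 105.5 with NVP-2 (−2.05, SE 0.25, edgeR adjusted p 0.000507). KCNK6 had 9.25, 10.5, 6.95 and 6.24 against 1.05, 1.04, 1.01 and 0.38 CPM (−3.20, SE 0.58, edgeR adjusted p 0.00304), on 4, 5, 3 and 1 T>C reads. KCNK6 passed the filter on low counts through DMSO, where it is high, so its call, counted among the 3, carries little weight. KCNN4 went from 62.3 ± 12.9 to 23.3 ± 3.85 (−1.42, SE 0.29, edgeR adjusted p 0.00557). KCNK1 split by experiment: 71.3 and 63.5 CPM with NVP-2 in experiment 1 but 24.8 and 13.2 in experiment 2, against DMSO libraries from 72.8 to 107.7 (−1.13, SE 0.48, edgeR adjusted p 0.102, 0.0433 with the experiment as a block, and 0.0451 without the NVP-2 library 1.1). With that block 4 members were called, but 3 when counts were also summed per experiment. The shares of all genes called in these fits are not given here, so nothing is read from these counts. KCNK5, at 2.104 ± 0.36 with DMSO and 0.46 ± 0.31 with NVP-2, had 2, 3, 2 and 0 T>C reads with NVP-2 (edgeR adjusted p 0.0629). All NVP-2 libraries lay below all DMSO libraries for these 5 genes, which held for 21.2% of all genes, and above them for 0 members, which held for 13.1%. LRRC8B, LRRC8C, LRRC8D and LRRC8E had log2 differences of −0.50, 0.25, 0.61 and −1.13 (edgeR adjusted p from 0.256 to 0.669), and LRRC8D passed without the NVP-2 library 2.1 (0.84, edgeR adjusted p 0.0343), a library at 15.4 CPM against 45.8 to 49.0 in the other 3.

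The responses to NVP-2 differed between the lines for no member at an edgeR adjusted p under 0.05, where 0.851% of all genes differed (0.296% higher and 0.555% lower in T3M-4). The difference of log2 changes, T3M-4 minus AsPC-1, was −2.39 for KCNK6 (SE 0.56, edgeR adjusted p 0.0503) and −1.15 for LRRC8A (SE 0.35, edgeR adjusted p 0.136), and DESeq2 called both (adjusted p 0.00322 and 0.0167). For this difference DESeq2 called 4.51% of all genes. LRRC8C has almost no reads in AsPC-1 and this difference of its responses cannot be read. The CB-6644 and NVP-2 comparisons within a line share their DMSO libraries.

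**Figure D2:**
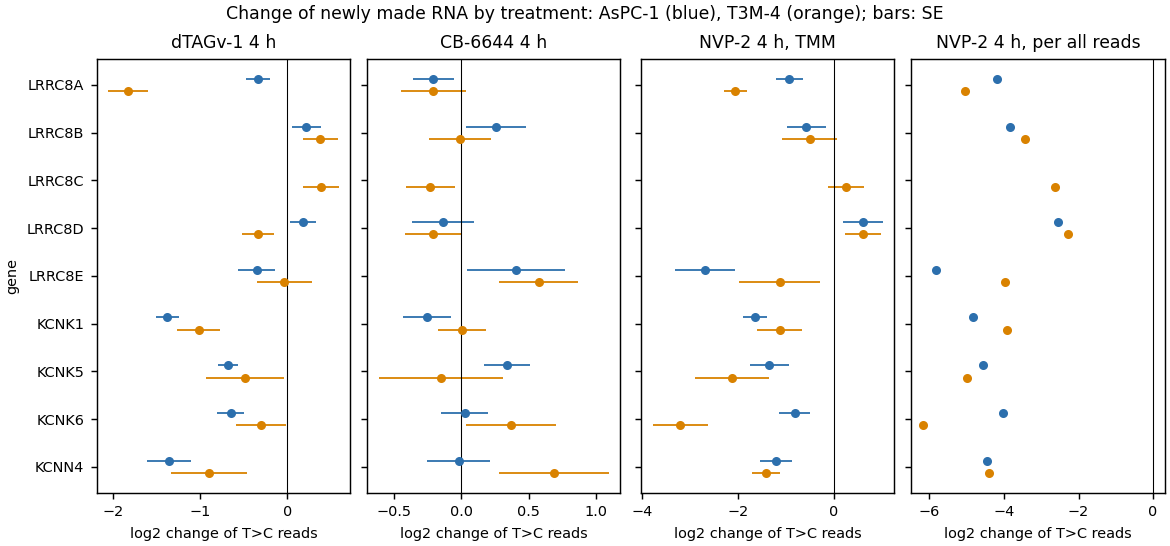
Log2 change of T>C reads for each channel gene in AsPC-1 (blue) and T3M-4 (orange), at 4 h, after dTAG against NEG and after CB-6644 or NVP-2 against DMSO. Bars are SE in the first 3 panels, which use TMM scaling; the last panel scales NVP-2 by all reads, has no bars, and all its points lie between −6.17 and −2.29. Horizontal scales differ between panels.

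The labelled shares after NVP-2 differed in size between the genes. In AsPC-1 KCNN4 had the lowest mean, 0.47% ± 0.11 against 8.74% ± 1.34 with DMSO. LRRC8D had 5.86% ± 4.84 against 26.1% ± 5.25, with 12.8% in the NVP-2 library 1.1 and 5.63, 2.89 and 2.16% in the others, and KCNK5 had 5.298% ± 2.07 against 38.5% ± 6.96. The median of KCNK5, 4.99%, was above that of LRRC8D, 4.26%. In T3M-4 KCNK6 kept 0.40% ± 0.14 against 22.4% ± 2.70 and KCNN4 0.57% ± 0.17 against 11.8% ± 2.998, while LRRC8D kept 7.56% ± 4.63 (from 1.61 to 12.4%) against 25.6% ± 5.98 and LRRC8C 6.98% ± 3.67 (from 3.32 to 10.5%) against 36.7% ± 6.25. NVP-2 and DMSO libraries did not overlap for any member with at least 50 reads in each library. In AsPC-1 all 8 passed (exact permutation p 0.00794 each, adjusted 0.0318, n = 4 against 5). The share of whole libraries fell too, and other genes were not tested, so nothing is read from this count or the lack of overlap. In T3M-4 the smallest p that 4 against 4 libraries allow is 0.0286, which was 0.0624 after adjustment. Divided by the share of the library, no member passed in either line (lowest exact permutation adjusted p 0.0981).

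**Figure D3:**
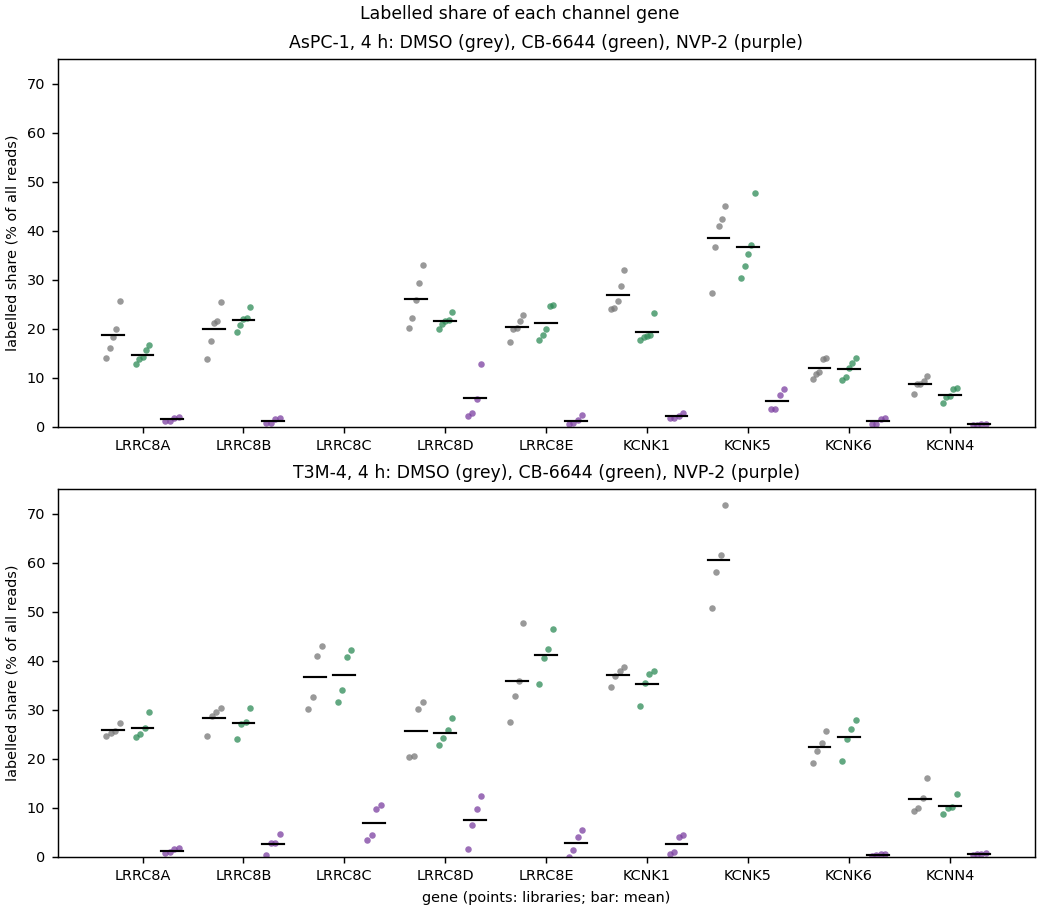
Labelled share (percent of a gene's reads with T>C conversions) in each DMSO (grey), CB-6644 (green) and NVP-2 (purple) library at 4 h, AsPC-1 above and T3M-4 below, with a bar at the mean. NVP-2 lies lowest for each gene drawn; groups with under 4 libraries of at least 50 reads, such as LRRC8C in AsPC-1, are not drawn.

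The lines differed in the levels of most of these channels. With DMSO at 4 h, 4 of the 5 LRRC8 subunits were higher in T3M-4 and 3 of the 4 potassium channels were higher in AsPC-1, in both T>C reads and all reads. In T>C reads 8 of 9 members were called, where 48.4% of all genes were (26.8% higher in T3M-4, 21.6% lower), and in all reads 7 of 9, where 55.7% were (30.5% higher, 25.2% lower). These counts include LRRC8C, which passed the filter on low counts through T3M-4, the line where it is high, and so had to differ. All T3M-4 libraries lay above all AsPC-1 libraries for 5 members and below them for 3 in T>C reads, which held for 23.7% and 18.1% of all genes, and for 4 and 3 members in all reads, which held for 26.8% and 21.3%. The libraries of a line come from engineered, drug-selected cells of that line, so these tests compare 2 cell lines and not subtypes. The AsPC-1 libraries fell into DCLK1-high and DCLK1-low sets, and whether they come from 1 cell population is not given in the sources used here.

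LRRC8A was at 625.4 ± 85.4 T>C CPM in T3M-4 (n = 4) and 64.5 ± 10.1 in AsPC-1 (n = 5), 9.7-fold higher (log2 3.28, SE 0.18, edgeR adjusted p 2.73e-07), and 7.74-fold higher in all reads. LRRC8B was 2.72-fold and LRRC8D 2.58-fold higher (edgeR adjusted p 0.000616 and 0.000199). LRRC8C had 1687 T>C reads in the T3M-4 DMSO libraries and 4 in those of AsPC-1, all 4 in 1 library, a ratio of 285 in CPM with an exact counting interval from 111 to 1050 (95%). In all reads it had 4649 and 5, a ratio of 768 (329 to 2370). PCR copies are not independent molecules, so these intervals cover counting error only. LRRC8E did not differ past the threshold, at 8.62 ± 2.72 and 8.37 ± 4.46 T>C CPM (0.04, SE 0.40, edgeR adjusted p 0.936).

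Among the potassium channels, KCNK5 was 6.12-fold lower in T3M-4 (2.60 ± 0.39 against 15.9 ± 1.99 T>C CPM, −2.61, SE 0.24, edgeR adjusted p 7.56e-06) and KCNK1 2.7-fold lower (118 ± 17.8 against 318 ± 70.3, −1.43, SE 0.20, edgeR adjusted p 0.000158). KCNK6 was lower too (10.2 ± 2.64 against 17.5 ± 2.52, −0.78, SE 0.24, edgeR adjusted p 0.0172), a call lost without the T3M-4 DMSO library 2.2 (edgeR adjusted p 0.0542). In all reads KCNK5, KCNK1 and KCNK6 were 8.69-fold, 3.38-fold and 2.71-fold lower. KCNN4 was higher in T3M-4 in T>C reads (0.54, SE 0.20, edgeR adjusted p 0.0459), a call lost without any 1 of 7 of the 9 libraries (edgeR adjusted p up to 0.188), and in all reads it did not pass (0.25, SE 0.20, edgeR adjusted p 0.314). When T>C counts were scaled by all reads the median gene shifted to 0.37 and KCNK6 was no longer called (−0.49, edgeR adjusted p 0.201).

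The labelled share differed between the lines for 3 of the 8 members tested. It was higher in T3M-4 for KCNK5 (60.5% ± 8.66 against 38.5% ± 6.96), LRRC8E (35.9% ± 8.53 against 20.3% ± 2.05) and KCNK6 (22.4% ± 2.70 against 11.9% ± 1.96), each with no overlap (exact permutation p 0.00794, adjusted 0.0318, n = 4 against 5). LRRC8D had 25.6% ± 5.98 against 26.1% ± 5.25 (exact permutation p 0.905, adjusted 0.924). The whole libraries had 12.4% ± 1.56 and 10.1% ± 0.62, and divided by that share no member passed (exact permutation adjusted p 0.0981 for these 3). Other genes were not tested, so nothing is read from the count of 3 or from the lack of overlap.

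**Figure D4:**
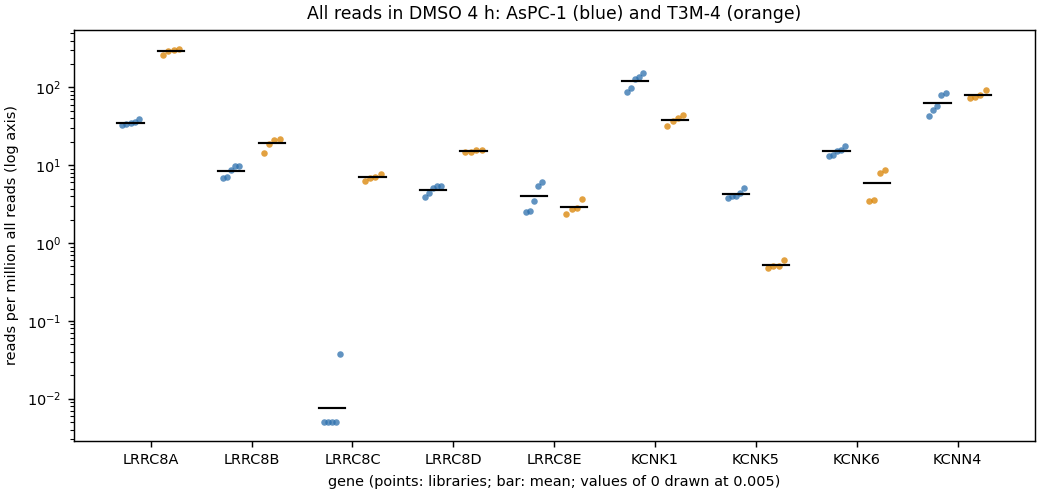
CPM of all reads (log axis) of each channel gene in the DMSO libraries at 4 h of AsPC-1 (blue, n = 5) and T3M-4 (orange, n = 4), with a bar at the mean. LRRC8A, LRRC8B, LRRC8C and LRRC8D sit higher in T3M-4 and KCNK1, KCNK5 and KCNK6 higher in AsPC-1.

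The genes whose T>C levels across the 42 AsPC-1 libraries were most like KCNK1 were SLC20A1 (Pearson r 0.911), TNS4 (0.843) and EFNB1 (0.84), of 13343 genes compared. Across the 20 T3M-4 libraries GPRC5A (0.975) and C1orf116 (0.95) were among the genes most like LRRC8A, of 14497. The libraries fall into treatment groups that themselves set these correlations, so they are descriptions.

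Another 3 lists of related genes, each of 22 named genes, were read beside the members: other potassium channels, other anion channels, and regulators of cell volume and osmotic balance. After CB-6644 0 genes of the lists passed in any comparison. After dTAG 1 of 15 anion channels was lower in AsPC-1, and in T3M-4 1 of 17 anion channels and 1 of 18 volume regulators, with 0 higher (over all genes 1.94% were lower in AsPC-1 and 0.745% in T3M-4). After NVP-2 with TMM scaling 3 of 14 anion channels were higher and 0 lower in AsPC-1 (median log2 change 0.35, against −0.05 over all genes), and 5 of 16 higher and 0 lower in T3M-4 (0.43 against −0.12), where 12.9% and 12.4% of all genes were higher. Higher here is relative to the other genes: ANO6, a scramblase and channel, rose by 0.93 in AsPC-1 (edgeR adjusted p 0.0239), but stood at −2.26 when T>C reads were scaled by all reads. ANO1, a calcium-activated chloride channel, rose by 0.73 and 0.80 in AsPC-1 and T3M-4 (edgeR adjusted p 0.0453 and 0.0316) and stood at −2.50 and −2.23 on the all-reads scale. CLCA2, a regulator of chloride conductance, rose by 3.155 in T3M-4 (edgeR adjusted p 0.0289) and stood at 0.056 on the all-reads scale.

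Of the volume regulators 5 of 15 were higher and 2 lower after NVP-2 in AsPC-1, and 4 of 16 higher and 4 lower in T3M-4, where 12.9% and 17.6% of all genes were higher and lower in AsPC-1 and 12.4% and 14.2% in T3M-4. AQP3, a water and glycerol channel, rose by 1.61 and 2.099 relative to the other genes (edgeR adjusted p 0.00867 and 0.0021), and stood at −1.53 and −0.98 on the all-reads scale. SGK1, a kinase induced by osmotic and hormonal signals, fell by 5.19 and 3.24 (edgeR adjusted p 0.0111 and 0.000493), and SLC38A2, an amino acid transporter of the osmotic response, fell by 2.27 and 1.82 (edgeR adjusted p 0.000965 and 0.00568). On the all-reads scale SGK1 stood at −8.35 and −6.17 and SLC38A2 at −5.47 and −4.71. Of other potassium channels 1 of 2 tested was lower in AsPC-1, KCNJ15, at 0 in all NVP-2 libraries and 3.05 CPM with DMSO, so that it passed the filter through DMSO alone, and 0 of 4 passed in T3M-4.

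Between the lines in T>C reads, 1 of 4 other potassium channels was higher in T3M-4, namely KCNK2, which had 0 T>C reads in the AsPC-1 DMSO libraries and passed the filter through T3M-4 alone. Of anion channels 6 of 15 were higher and 3 lower, and of volume regulators 6 of 18 were higher and 6 lower, where 26.8% of all genes were higher and 21.6% lower. ANO6 was lower in T3M-4 (−2.32, SE 0.18, edgeR adjusted p 2.8e-06). NFAT5, the transcription factor of the osmotic response, was lower as well (−1.18, SE 0.16, edgeR adjusted p 0.000113).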

How the data were processed

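SLAM-seq libraries of 2 lines were analysed. Per the paper's methods, the authors made 3′ end libraries and counted reads with slamdunk at its defaults over 3′ untranslated regions (GENCODE v44, hg38); the version was not given in the sources used here. They deposited, for every gene, raw counts of T>C reads and of all reads, with no normalization. Of the columns with values, 1 was not used: the all-reads column of an AsPC-1 dTAG library, which held the T>C values of another library.

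Members, lists and motifs were chosen with earlier results of these data known. Groups came from the sample labels. T>C counts were tested with edgeR 4.0.16 (filterByExpr, TMM, quasi-likelihood F test) in R 4.3.3, with Benjamini-Hochberg adjustment over all genes and calls under 0.05; SE is the log2 change over the square root of F. The test was checked on simulated data. DESeq2 1.42.0, other scalings, all reads, blocks, batches and left-out libraries were alternatives. Shares need at least 50 reads of a gene in each library and were compared by exact permutation (Python 3.11.15) with adjustment over 48 tests. They were tested for the members only, so no share of all genes stands beside those counts. No spike-in was used here, so amounts per cell are unknown.

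The genes named are the 9 members, KLF5, up to 3 called genes per list and direction with the smallest p, and the 3 most like KCNK1 and LRRC8A, some of which are not reported here; from the lists, genes with a role of interest are printed. Deviations of same-numbered libraries correlated positively for dTAG and NEG in both lines (from 0.252 to 0.585). They did so too for CB-6644 at 12 h and in T3M-4, and for NVP-2 in T3M-4. In AsPC-1 at 4 h they went down to −0.062 for CB-6644 and −0.111 for NVP-2. The same-numbered control was often not the best match, so whether numbers pair the libraries is not settled. No replicate pair held identical values (0 of 158). LRRC8E counts were even in all 62 T>C columns and LRRC8A counts multiples of 3 in 37 of 42 AsPC-1 columns, so fewer reads than counts lie behind them. In the canonical transcripts the LRRC8B and LRRC8E 3′ regions overlap genes on the other strand, and that of LRRC8C one on its own strand. Use of strand in counting is not given in the sources used here.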

Additional observations from a re-analysis of the deposited data

Results flagged for a closer look

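By Dixon's test 9 values lay far from the others of their group, of 199 groups of 4 to 10 libraries, and chance alone flags about 1 in 20. In T>C CPM these were KCNK1 in AsPC-1 CB-6644 4 h library 1.1 (367.4, the other 4 from 241.0 to 264.0), LRRC8B in AsPC-1 DMSO 12 h library 2 (32.3, others 19.2 to 21.3), LRRC8E in AsPC-1 NVP-2 library 2.2 (2.21, others 0.76 to 0.82), KCNN4 in T3M-4 DMSO library 1.1 (103.6, others 67.99 to 71.8) and LRRC8C in T3M-4 NEG library 2.2 (16.3, others 24.1 to 25.1). LRRC8D in T3M-4 NVP-2 library 2.1 (15.4, others 45.8 to 49.0) and KCNK6 in T3M-4 NVP-2 library 2.2 (0.38, others 1.01 to 1.05) followed, the latter on 1 T>C read. In labelled share these were KCNK1 in AsPC-1 CB-6644 4 h library 1.1 (23.3%, others 17.7 to 18.7%) and LRRC8E in T3M-4 NEG library 2.2 (35.4%, others 40.3 to 41.1%).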

How the results depend on the processing

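Counts below are of members called. After CB-6644 the count was 0 under each alternative run, including fits without 1 library, and it was 0 for the difference of CB-6644 responses. After dTAG in AsPC-1 4 members were called, with 4 under the replicate block and the block by experiment, 2 in all reads, 2 with counts summed per experiment with that block, 1 (KCNK1) without experiment 1 and 1 (KCNK1) in batch 2 alone. Over all genes 2.4% were called in the main fit, 0.797% in all reads, 0.305% without experiment 1 and 0.133% in batch 2 alone. In T3M-4 1 was called, with 2 under DESeq2, 2 under the replicate block, the block by experiment or summed counts with it, 0 in all reads, 3 in batch 2 alone, and 1 to 2 without 1 library (2 without dTAG 1.1 or 1.2). Over all genes 0.834% were called in the main fit, 2.53% under DESeq2, 0.0191% in all reads and 0.925% in batch 2 alone. The share of all genes moved too, so nothing is read from these counts after dTAG. After NVP-2 the counts of 5 and 3 were 8 and 9 when scaled by all reads, and 3 and 0 in all reads. When scaled by all reads, 10829 of 11498 and 10680 of 12242 genes were called. In all reads 11.8% and 5.16% of all genes were called. Without 1 library the counts ran from 3 to 6 and from 3 to 4. In T3M-4 the replicate block gave 3, the block by experiment 4, and that block on summed counts 3. Whether the numbers pair the libraries there is not settled. The shares of all genes called with these blocks are not given here, so nothing is read from the counts. Scaling by all reads turned LRRC8D in AsPC-1 to −2.56 and LRRC8C and LRRC8D in T3M-4 to −2.63 and −2.29, since the share of T>C reads itself fell, and KCNN4 in T3M-4 was 0.093 in all reads (the cause was not tested). DESeq2 gave 2 members whose NVP-2 responses differed between the lines in place of 0, and called 4.51% of all genes in place of 0.851%. The cell line counts of 8 and 7 ran from 6 to 8 and stayed at 7 without 1 library. Of 48 share tests 12 passed, with 9 at a minimum of 200 reads, 0 when divided by the library share, and 0 to 12 without 1 library, 0 without any 1 of the 9 AsPC-1 DMSO or NVP-2 libraries at 4 h, where fewer samples raise the smallest possible p. The replicate block moved no count of members called except that after dTAG in T3M-4. Not called in either fit, 83 member values changed sign. The DCLK1 split as a block was chosen after seeing the data. Depth limits KCNK5 and KCNK6 after NVP-2 in T3M-4 and LRRC8E after NVP-2 in AsPC-1, with 5 or fewer T>C reads in each library.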
